A study of Mus musculus with 6 samples.

Results

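Genes of cholesterol efflux and of its nuclear receptors were followed in starry-sky tumor-associated macrophages (SS-TAMs) and in germinal center macrophages (GCMs). The set was a fixed list of 9 genes: the transporters Abca1 and Abcg1, the apolipoprotein gene Apoe, the receptor genes Nr1h3, Nr1h2, Rxra, Pparg and Ppard, and the ubiquitin ligase gene Mylip. A gene was measured where a probe set of the array named it and no other gene. Of the 9 genes, 8 met this rule with 1 probe set each, among 19938 genes tested in all. The expression of Nr1h2 was not analysed here.

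SS-TAMs were cut by laser from tumors of BL2, a human Burkitt's lymphoma line, grown under the skin of female Balb/c SCID mice to 1.44 cm2, and were found by staining for CD68. SCID mice lack mature T and B cells, so these tumors hold mouse stroma and macrophages but a human lymphoma. GCMs were cut from splenic germinal centers of female CSF1R EGFP transgenic Balb/c mice immunized with sheep red blood cells in 2 doses, where the Csf1r promoter drives the fluorescent reporter. A source label of these samples names lymph nodes instead. All mice were 6 to 12 weeks old, and each of the 6 arrays (3 SS-TAM and 3 GCM) carried amplified RNA of 1000 captured cells from 1 mouse. Host strain, tissue, tumor and immunization changed together between the groups and cannot be told apart.

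A macrophage that engulfs a dying cell also takes up its cholesterol. The liver X receptors LXR alpha (Nr1h3) and LXR beta (Nr1h2) sense oxidized forms of cholesterol, and as heterodimers with RXR alpha (Rxra) switch on Abca1, Abcg1, Apoe and Mylip. ABCA1 and ABCG1 move cholesterol out of the cell to lipoprotein particles, apolipoprotein E is one of its carriers, and MYLIP (IDOL) marks the LDL receptor for degradation. PPAR gamma (Pparg) and PPAR delta (Ppard) sense fatty acids, pair with the same RXR, and PPAR gamma can raise Nr1h3.

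LXR with RXR binds a direct repeat of the hexamer AGGTCA with 4 bases between the copies (DR4, written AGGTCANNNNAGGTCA), and PPAR with RXR binds the repeat with 1 base between them (DR1, written AGGTCANAGGTCA). RefSeq promoter windows (GRCm38.p6, 250 bases before and 50 after a start site) were found for 8 of the 9 genes, 14 windows in all. Abcg1 had no window and was not searched, whereas Nr1h2 was. The windows were searched on both strands with at most 1 mismatch in each hexamer. DR4 was found in 0 of the 14 windows, against 1.75% of all 32851 windows. DR1 was found in 1 of the 14, against 2.40% of all windows. Because the known LXR element of the Abca1 promoter departs from AGGTCA, a looser search with up to 3 mismatches in all was added after this result. It found DR4 in 3 of the 14 windows, against 21.9% of all windows. The Abca1 and Rxra stretches are shown because these are the efflux gene with the largest change and the shared receptor partner. Capitals mark the looser DR4 match of Abca1 and the DR1 match of Rxra.
Abca1, chr4:53159907-53160002, minus strand: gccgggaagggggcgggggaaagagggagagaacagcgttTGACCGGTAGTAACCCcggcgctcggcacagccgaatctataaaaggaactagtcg
Rxra, chr2:27709177-27709269, plus strand: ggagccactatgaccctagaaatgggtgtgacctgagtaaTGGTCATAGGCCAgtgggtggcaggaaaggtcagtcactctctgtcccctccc
The Abca1 match lies 67 to 52 bases before the start site and runs on the opposite strand. Read on that strand as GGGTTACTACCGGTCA, it departs from the repeat by A1G, C5T and A11C, counted from 1 at its 5′ end. The Rxra match lies 75 to 63 bases before the start site of the window that holds it, 1 of 2 for this gene and departs by A1T and T11C. Such matches are descriptions of the sequence, not measured binding sites.

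The efflux transporters, PPAR gamma and LXR alpha transcripts were higher in SS-TAMs, whereas those of PPAR delta, RXR alpha and MYLIP did not pass the test. Of the 8 measured genes, 4 were called higher and 0 lower, a call being an adjusted p under 0.05 from limma over all genes tested. Of all 19938 genes, 5.16% were called higher and 4.74% lower by the same adjusted threshold. At an unadjusted p under 0.05 from limma, 5 of the 8 were higher and 0 lower. The share of all genes at that unadjusted threshold was not counted. The 4 called genes were Abca1, Pparg, Abcg1 and Nr1h3, and Apoe missed the threshold. On 5 of the 8 genes every SS-TAM array lay above every GCM array, as did 18.5% of all genes. The median log2 fold change, positive where SS-TAMs were higher, was 1.13 over the 8 genes and 0.041 over all genes. In captured cells, fewer cells of a type and less RNA per cell cannot be told apart.

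**Figure D1:**
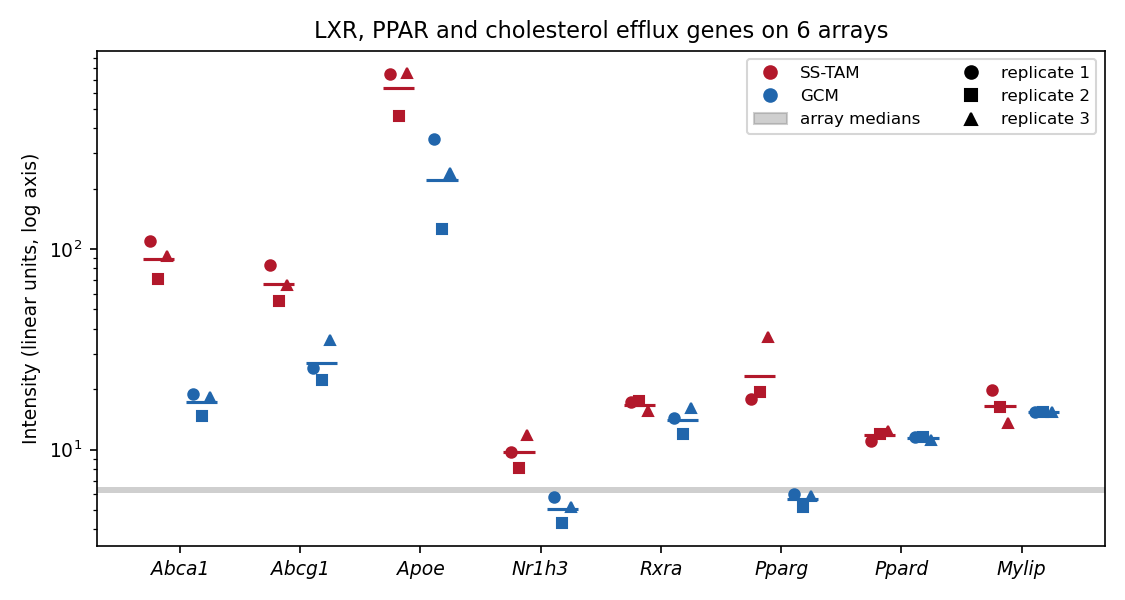
Intensity in linear units on a log axis of 8 genes on 6 arrays; each symbol is 1 array (SS-TAM red, GCM blue), each bar a group's geometric mean, and the grey band the range of array medians, 6.1 to 6.5. Abca1, Abcg1, Apoe, Nr1h3 and Pparg have every SS-TAM array above every GCM array, and the GCM arrays of Nr1h3 and Pparg lie below the grey band.

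Abca1, the transporter that loads cholesterol onto lipid-poor apolipoprotein A-I, had intensities of 109.1, 71.2 and 92.7 in SS-TAM replicates 1 to 3, against 18.9, 14.7 and 18.3 in GCM replicates 1 to 3. The lowest SS-TAM array was thus far above the highest GCM array, and replicate 2 was the lowest of each group. The mean was 91.0 ± 19.0 for SS-TAMs and 17.3 ± 2.27 for GCMs (n = 3 each, ± SD). This is a 5.21-fold difference, with a log2 fold change of 2.38 (standard error 0.18, 95% interval 1.94 to 2.83, adjusted p = 0.0018 from limma). By fold, Abca1 stood at place 58 of all genes tested. The study lists Abca1 and Pparg among genes it selected on these arrays, so their direction is not independent evidence. The same holds for Mertk, Cd36, Ctsb and Timp2, which are named below.

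Abcg1, whose product passes cholesterol to mature high-density lipoprotein, was at 83.5, 55.1 and 65.9 in SS-TAMs and at 25.5, 22.3 and 35.3 in GCMs. The arrays of the groups did not overlap, and GCM replicate 3 was the highest of its group. The ratio was 2.47, or 1.31 ± 0.22 on the log2 scale (estimate ± standard error, limma, adjusted p = 0.021). Leaving out replicate 1 or 3 of the SS-TAMs, or replicate 1 or 2 of the GCMs, ended the call (limma, adjusted p up to 0.084), while the log2 fold change stayed between 1.15 and 1.49 without any 1 array.

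The gap between the transporters was read within arrays, where scaling between arrays plays no part. Within each array, the log2 value of Abca1 minus that of Abcg1 was 0.39, 0.37 and 0.49 in SS-TAMs, against -0.43, -0.60 and -0.95 in GCMs. It differed by 1.08 between the groups without overlap (exact permutation test, two-sided, p = 0.1 and adjusted p = 0.1 over 2 pairs, the smallest that 3 arrays against 3 allow). The design cannot reach the threshold with this test.

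Apoe, which encodes a lipoprotein carrier secreted by macrophages, had intensities of 742.9, 459.5 and 752.3 in SS-TAMs and of 352.3, 126.3 and 240.3 in GCMs. The groups did not overlap, but the GCM arrays spread 2.79-fold from lowest to highest, and GCM replicate 1 came close to SS-TAM replicate 2. The log2 fold change of 1.53 (95% interval 0.53 to 2.53) did not pass (adjusted p = 0.075 from limma). Quantile normalization of the arrays gave 2.29 (adjusted p = 0.0088 from limma), whereas median centring gave 1.47 and did not pass (adjusted p = 0.074 from limma). Apoe also passed without dim probe sets and with a replicate block (limma, adjusted p = 0.043 and 0.026). Its call thus depended on the processing, not on the scaling alone.

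Nr1h3, the gene of LXR alpha, was at 9.7, 8.1 and 11.8 in SS-TAMs, against 5.8, 4.3 and 5.2 in GCMs. All SS-TAM values lay above the array medians, and all GCM values below them. On average the SS-TAM value exceeded 71.0% of all probe sets and the GCM value 32.5%. The ratio was 1.93, or 0.95 ± 0.17 on the log2 scale (limma, adjusted p = 0.026). A GCM level this low may be background, in which case the fold would be understated. With an offset of 8 added to the intensities, the log2 fold change was 0.44. Of the fits that left out 1 array, the call was kept only without SS-TAM replicate 2, and the adjusted p reached 0.095 without GCM replicate 3.

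Rxra, the partner of both LXR and PPAR, was at 17.3, 17.5 and 15.6 in SS-TAMs and at 14.4, 12 and 16.1 in GCMs. The groups overlapped, since GCM replicate 3 was above SS-TAM replicate 3. The log2 fold change was 0.25 (95% interval -0.040 to 0.55, adjusted p = 0.25 from limma), which leaves room for changes up to the upper bound of that interval.

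Pparg, the gene of PPAR gamma, which promotes lipid uptake and storage in macrophages, was at 17.8, 19.4 and 36.6 in SS-TAMs, against 6, 5.2 and 5.9 in GCMs. SS-TAM replicate 3 was about 2.06 times the lowest SS-TAM array, and all 3 GCM arrays lay below the array medians. The mean was 24.6 ± 10.4 for SS-TAMs and 5.70 ± 0.44 for GCMs (SD). The 4.09-fold ratio (2.03 ± 0.28 on the log2 scale, limma, adjusted p = 0.011) may be understated for the same reason as that of Nr1h3. With the offset of 8 the log2 fold change was 1.21. The call was lost without GCM replicate 2 or 3 (adjusted p = 0.063 and 0.055 from limma), with log2 fold changes of 1.97 and 2.06.

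Ppard, which encodes PPAR delta, was at 11, 12 and 12.4 in SS-TAMs and at 11.6, 11.5 and 11.2 in GCMs. The groups overlapped, and the 95% interval of the log2 fold change ran from -0.11 to 0.20 (adjusted p = 0.69 from limma). Within arrays, Pparg minus Ppard was 0.69, 0.69 and 1.56 in SS-TAMs, against -0.95, -1.15 and -0.92 in GCMs on the log2 scale. The groups did not overlap and differed by 1.99 (exact permutation test, two-sided, p = 0.1, the smallest possible). With Pparg this dim in GCMs the gap may be understated, and it was 1.18 after an offset of 8 was added to the intensities.

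Mylip was at 19.9, 16.4 and 13.6 in SS-TAMs and at 15.4 on each GCM array. The SS-TAM arrays lay on both sides of the GCM value, with a log2 fold change of 0.094 (95% interval -0.25 to 0.43, adjusted p = 0.69 from limma). Without SS-TAM replicate 1 the log2 fold change was -0.044.

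**Figure D2:**
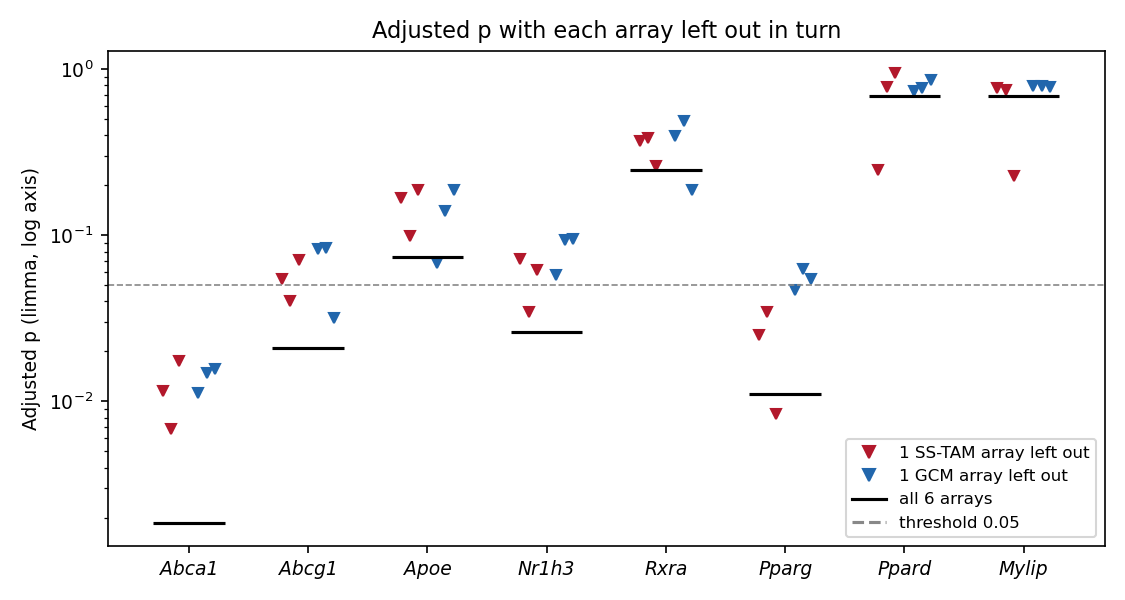
Adjusted p from limma on a log axis for 8 genes; bars use all 6 arrays, and triangles leave out 1 SS-TAM array (red) or 1 GCM array (blue). Only Abca1 stays under the dashed threshold of 0.05 throughout, with a highest value of 0.017.

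Transcripts of macrophages as a whole also stood higher in the SS-TAM captures, beside every increase above. Of 20 measured core macrophage markers, 14 were called higher and none lower, against 5.16% and 4.74% of all genes. Their mean log2 level was 1.47 higher in SS-TAMs. Cd68 and Csf1r are among them and served to find the cells. Each gene was therefore also read within each array as its log2 value minus the mean of these markers. The markers were uneven, with log2 fold changes from -0.094 (Aif1) to 4.07 (Adgre1). Adgre1, Cd14, Fcgr1, Fcgr3, Itgam and Cd163 had GCM means of 4.4 to 5.6, below the array medians, where values may hold background. Abca1 stood at -0.051, -0.27 and -0.18 in SS-TAMs, against -1.05, -1.14 and -1.07 in GCMs, and so remained higher without overlap, by 0.92. Pparg stood at -2.67, -2.15 and -1.52 in SS-TAMs, against -2.71, -2.63 and -2.70 in GCMs. Its mean difference was 0.57, but SS-TAM replicate 1 lay among the GCM arrays, so the groups overlapped.

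Apoe and Abcg1 overlapped between the groups on this scale, with differences of 0.063 and -0.16. Nr1h3 turned to the other side, at -3.54, -3.41 and -3.16 in SS-TAMs, against -2.76, -2.91 and -2.89 in GCMs, a difference of -0.52 without overlap. The dim GCM values of Nr1h3 and Pparg may hold background, which need not fall with the markers. The reversal of Nr1h3 and the overlap of Pparg are therefore uncertain. All differences on this scale also depend on the markers in the mean, some of them dim in GCMs. Rxra, Mylip and Ppard differed by -1.21, -1.37 and -1.42. The median of all genes was -1.42 on this scale, so Ppard, Mylip and Rxra lay close to the bulk of genes and Nr1h3 was 0.90 above it. No p-value is given for this scale, because limma then assigned 1 common variance to all genes (79752 degrees of freedom, against 5.91 without the scaling).

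**Figure D3:**
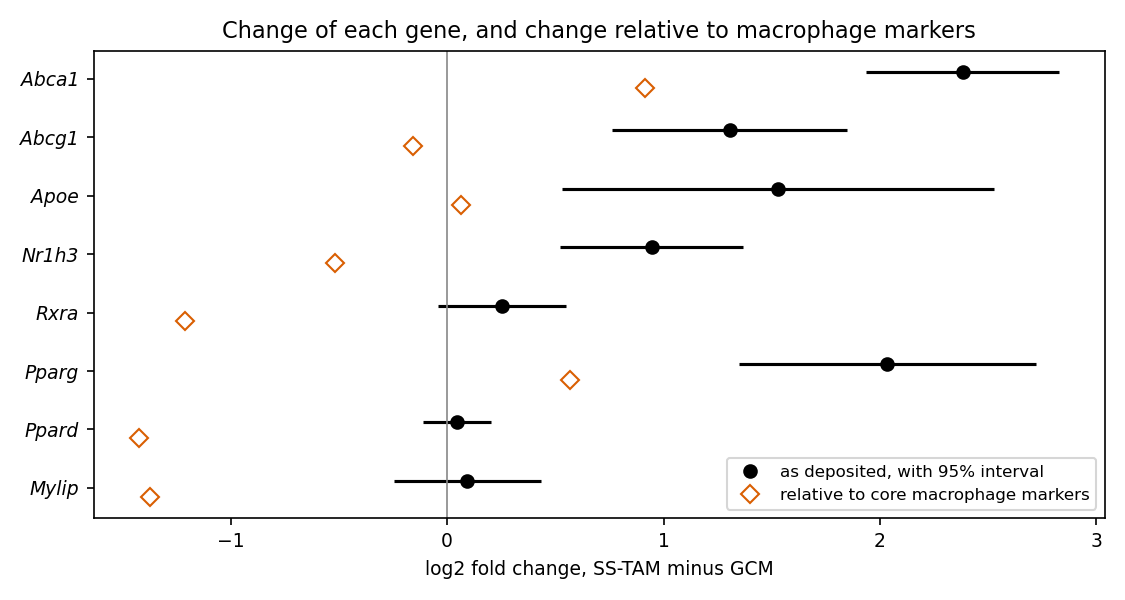
Difference in log2 intensity between SS-TAMs and GCMs for 8 genes; black points with bars are limma estimates with 95% intervals, and open diamonds are the same change after each array was set to its mean over core macrophage markers. On the marker scale Abca1 (0.92) and Pparg (0.57) have positive means, although the arrays of Pparg overlap, and Nr1h3 lies at -0.52. The GCM values of Pparg and Nr1h3 are dim and may hold background.

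Other cell types in the captures moved with the groups as well. The counts of their markers stand against 5.16% of all genes called higher and 4.74% called lower. Of 12 measured T cell markers, 7 were called lower, with intensities that summed to between 154.6 and 194.3 in SS-TAMs and between 1144.9 and 1542.8 in GCMs. Of 12 fibroblast and pericyte markers, 4 were called higher (sums of 726.4 to 1379.6 in SS-TAMs against 305.6 to 347.9 in GCMs). Follicular stroma markers were called lower in 4 of 7 (sums of 55 to 56.5 in SS-TAMs against 209 to 458.6 in GCMs), dendritic cell markers in 3 of 6 and B cell markers in 2 of 10. The SCID hosts of the SS-TAMs lack mature T and B cells. These markers are mouse genes and were not read as a measure of the human lymphoma cells. Whether human RNA bound to mouse probe sets was not tested. The part of any of these cell types in the changes of Apoe and the other genes was not tested. Adipocytes, which also express Pparg, were read from 8 markers, of which Cidec alone was called (higher). They summed to between 62.0 and 76.9 in SS-TAMs and between 54.9 and 65.6 in GCMs. The adipokine gene Adipoq was at 28.7, 9.9 and 9.1 in SS-TAMs and at 17.9, 8.3 and 9.1 in GCMs, and did not pass (adjusted p = 0.73 from limma). Cidec, a lipid droplet gene, was at 7.5, 6.6 and 7.7 in SS-TAMs, against 5.6, 5.5 and 5.8 in GCMs (adjusted p = 0.037 from limma). Lep lay between 3.9 and 4.8 in SS-TAMs and between 4 and 4.1 in GCMs, below the array medians, and Plin1 at 9.8 on all arrays. The part of adipocytes in the changes of Pparg and of the LXR and PPAR targets below was not tested.

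Further target genes of LXR held a few with large increases and a larger group mostly near 0, part of it dim. Of 15 measured genes, 5 were called higher and none lower, against 5.16% and 4.74% of all genes. The median log2 fold change was 0.14. Of the genes not called, Scd1 (-0.99) and Lpcat3 (0.64) lay furthest from 0. Every SS-TAM array of Lpcat3 lay above every GCM array (adjusted p = 0.11 from limma). Abcg5 (4.9 to 5.9 over the 6 arrays) and Abcg8 (4.9 to 5.8) lay below the array medians, where a change could go unseen. Lpl, which encodes lipoprotein lipase, was at 85.7, 51.4 and 74.6 in SS-TAMs, against 6.8, 5.3 and 6.3 in GCMs. This GCM level is close to the array medians, so its fold may be understated. With the offset of 8 its log2 fold change was 2.45. Pltp, the phospholipid transfer protein gene, was at 405.8, 232.6 and 331.3 in SS-TAMs, against 40.9, 36.3 and 39.6 in GCMs. In both genes SS-TAM replicate 2 was the lowest of its group, as in Abca1. Their log2 fold changes were 3.50 and 3.02 (adjusted p = 0.0011 and 0.0015 from limma). Mertk, a receptor for the uptake of apoptotic cells, changed by 2.90 on the log2 scale. Cd5l, the gene of a protein secreted by tissue macrophages, was at 27.2, 28.9 and 31.2 in SS-TAMs, against 4.7, 4.9 and 4.6 in GCMs, where all values were below the array medians. Its log2 fold change of 2.62 may likewise be understated, and was 1.54 with the offset of 8. The fifth, Tgm2, changed by 0.53 (adjusted p = 0.018 from limma) and lost its call without any 1 of the GCM arrays (up to 0.084). The lipid synthesis arm of LXR did not pass: Srebf1, the gene of SREBP-1, was at 10.1, 11.4 and 11.8 in SS-TAMs and at 10, 10.1 and 10 in GCMs, with an adjusted p of 0.28 from limma. The desaturase gene Scd1 ranged from 4.3 to 40.9 in SS-TAMs and from 15.8 to 67 in GCMs, with replicate 1 the highest of each group (adjusted p = 0.54 from limma).

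PPAR targets showed the same kind of split, with a median log2 fold change of 0.23. Of 11 measured genes, 3 were called higher and none lower, against 5.16% and 4.74% of all genes. Fabp4, a fatty acid binding protein gene, was at 116, 122.6 and 114.8 in SS-TAMs, against 28.3, 20 and 19 in GCMs (log2 fold change 2.42, adjusted p = 0.0014 from limma). The lipid droplet gene Plin2 was at 172, 61.4 and 102 in SS-TAMs, against 17.6, 17.7 and 21.1 in GCMs. Cd36, a receptor for oxidized lipoproteins and apoptotic cells, was at 131.1, 42.3 and 45.8 in SS-TAMs, against 11.8, 11.5 and 9.1 in GCMs. In both genes SS-TAM replicate 1 was the highest array, and the groups did not overlap. For Adipoq and most fibroblast and pericyte markers (not Rgs5, Acta2 or Fap), replicate 1 was also the highest SS-TAM array. The other adipocyte markers did not peak there. The part of these cells in the changes of Plin2 and Cd36 was not tested. The log2 fold changes of Plin2 and Cd36 were 2.45 and 2.56 (adjusted p = 0.014 and 0.023 from limma). Both calls were lost without SS-TAM replicate 3 or any 1 of the GCM arrays (limma, adjusted p up to 0.073 for Plin2 and 0.096 for Cd36), and that of Cd36 also with an offset of 8 (0.052). The other 8 measured PPAR targets did not pass, among them the fatty acid oxidation genes Cpt1a, Pdk4, Acadl, Acadvl, Acaa2, Slc25a20 and Ech1. On the log2 scale Slc25a20 changed by 0.41, Ech1 by 0.35 and Acaa2 by -0.33. Every SS-TAM array of Ech1 lay above every GCM array (adjusted p = 0.087 from limma). Pdk4 lay between 4.4 and 5.2 over all arrays, below the array medians, where a change could go unseen.

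Receptor partners and coregulators were mostly not called. Of 17 measured, 1 was called lower and 0 higher, a share near the 4.74% of all genes called lower. The median log2 fold change was -0.097. At an unadjusted p under 0.05 from limma, 3 were lower and 1 higher, with no share of all genes counted. The called gene was Tbl1xr1, a subunit of the NCoR and SMRT corepressor complexes. Its brighter probe set was at 39.5, 51.5 and 32.8 in SS-TAMs, against 83.7, 96.9 and 83.7 in GCMs (log2 fold change -1.12, adjusted p = 0.016 from limma), and its other probe set had a log2 fold change of -0.16. Quantile normalization, or leaving out SS-TAM replicate 1 or any GCM array, ended that call (limma, adjusted p up to 0.10). Rxrb, the gene of RXR beta, was at 8.7, 9.2 and 6.5 in SS-TAMs, against 5.8, 6.2 and 6.1 in GCMs (adjusted p = 0.13 from limma, and 0.017 without SS-TAM replicate 3).

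Of 11 measured genes of cholesterol transport and storage, 3 were called higher and none lower, against 5.16% and 4.74% of all genes. Their median log2 fold change was 0.27. Lipa, the acid lipase gene that frees cholesterol from its esters, was at 389.3, 277.6 and 369.8 in SS-TAMs, against 37, 49.6 and 70.2 in GCMs. Npc1, whose product exports that cholesterol from the lysosome, was at 87.6, 54.6 and 72.3 in SS-TAMs, against 15.5, 9.8 and 11.2 in GCMs. The log2 fold changes were 2.76 for Lipa, 2.56 for Npc1 and 1.12 for its partner Npc2 (adjusted p = 0.0035, 0.0033 and 0.022 from limma). Nceh1, a cholesterol ester hydrolase gene, had 53.8, 14 and 28.4 in SS-TAMs, against 8, 6.9 and 7.3 in GCMs (adjusted p = 0.060 from limma, and 0.023 without SS-TAM replicate 2). The call of Npc2 was lost without any 1 array other than SS-TAM replicate 2 (limma, adjusted p up to 0.088). Of 6 measured substrates and partners of MYLIP, 1 was called higher and none lower, against the same shares of all genes. The called gene was Ube2d3, a ubiquitin-conjugating enzyme gene, with probe sets that disagreed at 0.75, 0.51 and -0.82 on the log2 scale. Averaging its probe sets gave 0.15 (adjusted p = 0.56 from limma), and its call was also lost without any 1 array other than SS-TAM replicate 1 (up to 0.078). The receptor genes Vldlr and Lrp8 were not called. At an unadjusted p under 0.05 from limma, 0 genes of the LXR target, PPAR target, cholesterol transport and MYLIP lists were lower. The share of all genes at this threshold was not counted.

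**Figure D4:**
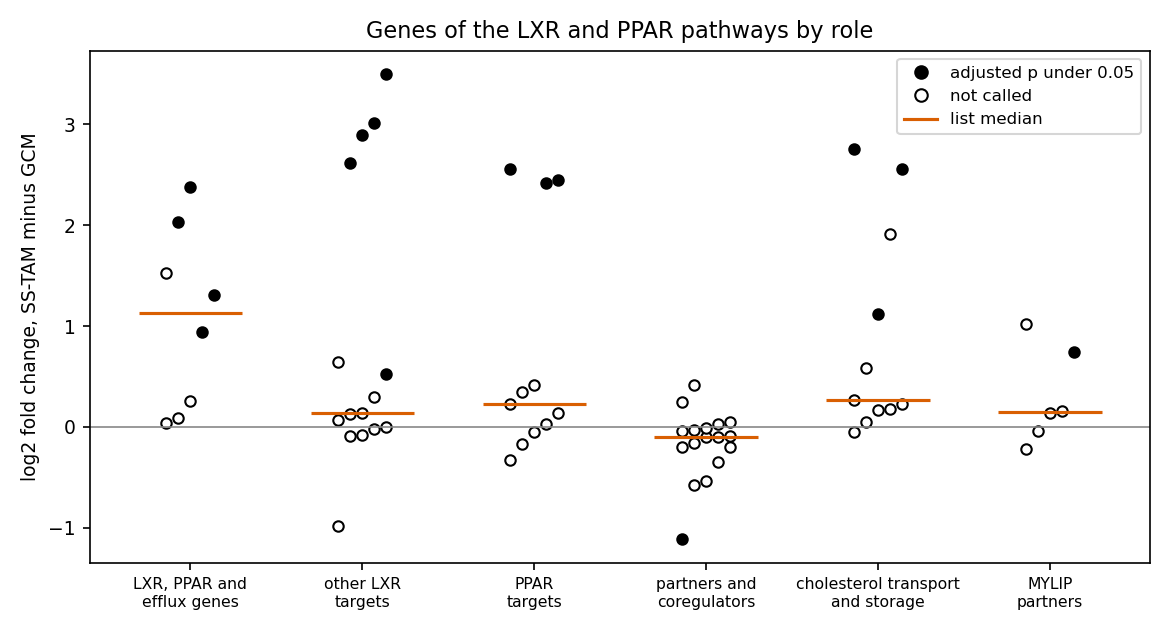
Difference in log2 intensity between SS-TAMs and GCMs for the measured genes of 6 lists; filled points are called by limma, open points are not, and orange bars are list medians. Increases above 2 appear among LXR targets, PPAR targets and cholesterol transport genes.

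Some further genes followed individual members closely over the 6 arrays. Likeness was the root mean square difference between log2 values after centring each gene on its mean. Closest to Abca1 were Ctsb (0.086), Timp2 (0.13) and Pld3 (0.14). Ctsb, the cathepsin B gene, was at 1041.8, 689.6 and 912.2 in SS-TAMs, against 159.8, 125.5 and 166.2 in GCMs, which is the array order of Abca1 within SS-TAMs. Closest to Pparg were Clec12a (0.10), Acp2 (0.17) and Lilrb4a (0.18), each highest on SS-TAM replicate 3. Closest to Nr1h3 were Sh3bp2 (0.063), Ptgr1 (0.079) and Msto1 (0.080). Closest to Apoe were Laptm5 (0.15), Iqgap1 (0.17) and Cybb (0.24), and like Apoe each had its lowest value on GCM replicate 2. Laptm5 and Cybb are also in the core macrophage list.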

How the data were processed

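RNA of captured cells was amplified and hybridized to Affymetrix Mouse Gene 1.0 arrays. Intensity values were deposited by the authors on a linear scale, rounded to 1 decimal (2.4 to 2543.6, 28944 probe sets). RMA and limma are named in their notes. Their versions and the background correction were not given in the sources read. Detection calls were absent from the analysis, so that dim values include background. Array medians were 6.1 to 6.5, and 99th percentiles 241 to 284 for SS-TAMs and 614 to 664 for GCMs. With 3 arrays a group, their number limits the precision.

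The platform annotation named 1 gene for 21789 probe sets, several for 1621 and none here for 5534. Symbols were updated by gene ID from RefSeq (21698 matched). The brightest probe set stood for each gene. Log2 intensities were fitted in limma 3.58.1 (R 4.3.3, lmFit with eBayes) as 3 SS-TAM against 3 GCM arrays without covariates. The p-values are two-sided and adjusted by Benjamini-Hochberg over 19938 genes. Folds are ratios of geometric means. Exact permutation tests used scipy 1.17.1. The fit was tested on simulated arrays.

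Members and lists were chosen with earlier results of these data known. The rule for named genes took all members, up to 4 called genes per list by size of change, or its 2 brightest where none was called, and the 3 genes most like Abca1, Apoe, Nr1h3 and Pparg. Other list genes named (such as Tgm2, Srebf1, Scd1, Rxrb and Nceh1) were chosen after their values were seen. Nr1h3 was not paired with Nr1h2. Alternatives changed the scaling, an offset of 8, the dim and multiple probe sets, the variance model, weights, a replicate block and the arrays included.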

Additional observations from a re-analysis of the deposited data

How the results depend on the processing

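Without any 1 array, 1 to 4 of the 8 genes were called higher (1 without GCM replicate 2, 4 without SS-TAM replicate 2, and 2 without each other array) and 0 lower, and of all genes 271 to 1159 higher and 399 to 796 lower. Scaling to the core macrophage markers gave 2 of the 8 genes higher and 4 lower, and of all genes 107 higher and 19633 lower. These 4 counts rest on p-values that are too small, since limma assigned 1 variance to all genes there, and nothing is read from them. That scaling turned Abcg1 to -0.16, Nr1h3 to -0.52, Rxra to -1.21, Mylip to -1.37, Ppard to -1.42, Npc2 to -0.34, Ube2d3 to -0.72, Iqgap1 to -0.058, Cybb to -0.17, Sh3bp2 to -0.42, Ptgr1 to -0.61, Msto1 to -0.64, Tgm2 to -0.94, Srebf1 to -1.32 and Rxrb to -1.05 on the log2 scale. Median centring turned Ppard to -0.017. Mylip ranged from -0.044 (without SS-TAM replicate 1) to 0.23 without any 1 array. Under all other alternatives run Abca1 kept its call. Array weights ended that of Abcg1 (limma, adjusted p = 0.066). Apoe passed after quantile normalization, without dim probe sets (limma, adjusted p = 0.043) and with a replicate block (0.026).

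With the replicate number as a block, 611 genes were called higher and 708 lower, and 5 of the 8 genes higher. Tgm2 lost its call under the block (limma, adjusted p = 0.054). The labels tie no number to a litter or day, and deviations of same-numbered arrays correlated at 0.090, 0.087 and 0.019. The within-array differences were 0.86 or more for Abca1 with Abcg1 and 1.18 or more for Pparg with Ppard under their alternatives. No detection limit could be set for dim GCM values. The causes of these shifts were not tested.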

Other observations

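Mylip had the same deposited value, 15.4, on all 3 GCM arrays, and Angptl4, a PPAR target gene, likewise had 6.5 on each. Identical values on all 3 arrays of a group were found for 295 of 19938 genes (1.48%) in SS-TAMs and 1863 (9.34%) in GCMs. Among the 5358 genes with a mean intensity above 10, where rounding to 1 decimal matters less, the counts were 18 in SS-TAMs and 142 in GCMs. For 62 genes all 6 arrays held the same value.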
